A study of Mus musculus with 6 samples.

Results

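Elastic fibres let the lung stretch and recoil. The 10 genes followed here, whose products build them, were Eln, the fibrillins Fbn1 and Fbn2, the adaptors Fbln5, Efemp2, Ltbp4 and Ltbp2, the crosslinking enzymes Lox and Loxl1, and Emilin2. They were chosen by symbol from the 55359 genes of the deposited table, and all 10 had enough counts to be among the 17728 genes tested. RNA-seq of polyadenylated transcripts was done on E18.5 lungs of C57 mouse embryos, shortly before birth, of which 3 carried the genotype label Prmt5 knockdown and 3 the label wild type. Prmt5 is the main enzyme that places symmetric dimethyl marks on arginine. The series text describes a knockout restricted to the lung mesenchyme through Dermo1, another name of Twist2, while the sample labels say knockdown. The labels name neither the recombinase line nor the Prmt5 allele. The same housing note, on pregnant C57 mice with the mesenchymal knockdown, stands with both groups, and no other treatment is given for either. The comparison asks what targeting Prmt5 in mesenchymal cells does to transcripts of the late fetal lung. Mesenchymal cells secrete most elastic fibre proteins.

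An elastic fibre is laid down in steps. Fibrillins first polymerise into microfibrils in the space around the cell, fibulins and latent TGF-beta binding proteins bring tropoelastin, the soluble product of Eln, onto this scaffold, and lysyl oxidases oxidise its lysines so that neighbouring molecules become covalently linked. In the fetal mouse lung elastin is laid down in airway and vessel walls, and after birth myofibroblasts deposit it at the tips of the ingrowing septa.

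Total counts were 14390202 to 19262837 in the knockdown-labelled and 14383415 to 16358478 in the wild type libraries, so 3 counts correspond to 0.156 to 0.209 CPM, the count rescaled to a common library total. Prmt5 itself stood at 39.6, 47.8 and 46.9 CPM in the knockdown-labelled and at 46.7, 47.3 and 48.3 CPM in the wild type libraries. That is a log2 fold change of -0.08 (95% interval -0.29 to 0.13, edgeR adjusted p = 0.682), so no loss of the targeted transcript passed the test. A gene-level count cannot show the loss of single exons, so a deletion of part of Prmt5 was not analysed here. The RNA came from lungs and not from mesenchymal cells alone, so the count does not measure Prmt5 within those cells. Twist2, the locus named as Dermo1, had 1.05, 0.92 and 1.49 CPM in the knockdown-labelled and 2.6, 2.05 and 3.08 CPM in the wild type libraries. These groups did not overlap, and the difference did not pass the test (log2 fold change -1.14, 95% interval -1.84 to -0.45, edgeR adjusted p = 0.163). The groups are named by their labels. Sftpc, the surfactant gene of alveolar type 2 cells, averaged 9428 ± 979 CPM in the knockdown-labelled and 8837 ± 950 CPM in the wild type libraries (SD, n = 3 each), which marks all of them as lung. By Xist and the Y-linked genes, 2 knockdown-labelled embryos and 1 wild type embryo were male. Genes of heart muscle stood apart between the groups. The sum over 13 of 13 markers, none of them at 0 in every library, was 3867, 11261 and 3386 CPM in the knockdown-labelled and 463, 566 and 2855 CPM in the wild type libraries. Each group held both sexes, so its libraries were not all from 1 embryo. The labels do not say whether litters were separate, so p-values reflect only how far these samples spread. Part of that spread may be technical.

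No elastic fibre gene passed the test between the groups. Of the 10 genes 0 had an edgeR quasi-likelihood adjusted p under 0.05, where 0.0338% of all genes tested did (6 genes). At an unadjusted p under 0.05 the microfibril genes Fbn1 and Ltbp2 were lower in the knockdown-labelled lungs, 2 of 10 where 8.52% of all genes were, and Emilin2 was higher, 1 of 10 where 8.48% were. The same 3 genes were those whose groups did not overlap, 2 lower where 12.4% of all genes were and 1 higher where 10.8% were. In bulk RNA of an organ, fewer cells of a type and less RNA per cell cannot be told apart. Negative log2 fold changes were found for 7 of the 10 genes, and for 47.1% of all genes tested. The median log2 fold change was -0.09 over the 10 genes and 0.01 over all genes tested. The sign of that median depends on whether the heart muscle level enters the fit, though that level was higher in every knockdown-labelled than in any wild type library. With that level as a covariate in edgeR the median of the 10 genes was 0.17, and Fbln5 (0.25), Efemp2 (0.014), Lox (0.25) and Ltbp4 (0.10) had positive log2 fold changes where they were negative without it. None of these 4 passed the test in either fit. These counts over 10 genes are small, and nothing particular to the list is read from them. By DESeq2, an alternative test that called 813 genes (366 higher and 447 lower), 3 of the 10 genes passed: Fbn1, Ltbp2 and Emilin2. The number of genes DESeq2 tested is not given here, so no share stands beside that count. Nothing particular to the list is read from it.

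**Figure D1:**
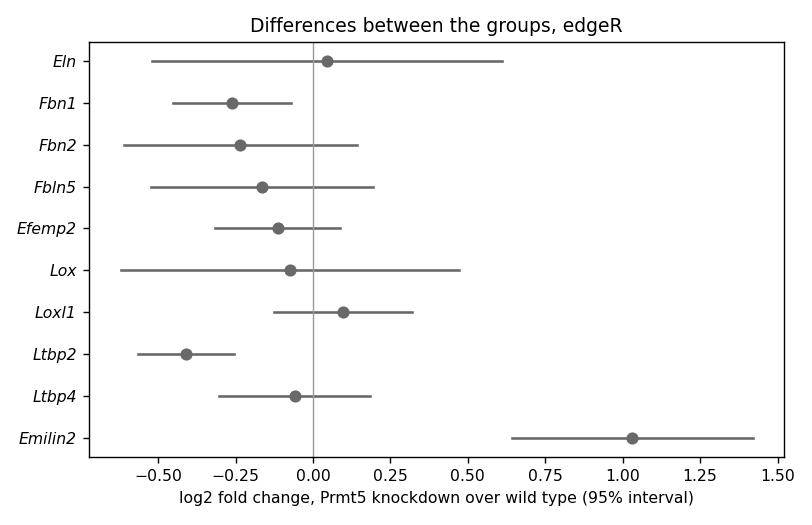
Log2 fold change of each gene, knockdown-labelled over wild type lungs, with its 95% interval from the edgeR fit (3 libraries per group). The intervals of Fbn1, Ltbp2 and Emilin2 leave out 0, unadjusted for the number of genes tested, and those of the other 7 genes span it.

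The genes covered a wide range of transcript level. FPKM, the read count scaled to exon length and library total, allows levels of different genes to be compared. Over all 6 libraries Eln had the highest mean at 620.4 ± 148 FPKM (SD, n = 6), followed by Lox at 139 ± 32.1, Ltbp4 at 70.8 ± 6.12, Fbn1 at 40.6 ± 4.49, Fbln5 at 38.3 ± 5.65, Loxl1 at 30.2 ± 2.88, Ltbp2 at 25.2 ± 3.87, Efemp2 at 15.9 ± 1.04, Fbn2 at 15.0 ± 2.44 and Emilin2 at 4.08 ± 1.68 FPKM. The mean of Eln was 4.46 times that of Lox. Eln, Lox and Ltbp4 kept this order above the other genes in all 6 libraries, and Emilin2 was the lowest in all 6. The ranges of 4 neighbouring pairs overlapped, namely Fbn1 with Fbln5, Fbln5 with Loxl1, Loxl1 with Ltbp2 and Efemp2 with Fbn2. Fbn1 was above Fbln5 in 5 libraries, Loxl1 above Ltbp2 in 4 and Efemp2 above Fbn2 in 4, so the order inside these pairs is not fixed.

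**Figure D2:**
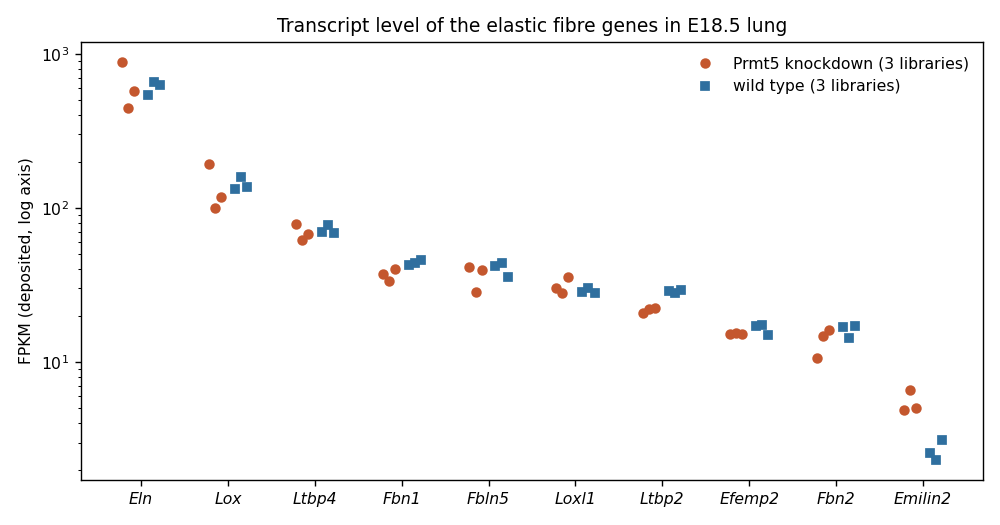
Deposited FPKM of the 10 genes on a log axis, ordered by the mean over 6 libraries, with 1 point per library (knockdown-labelled left, wild type right). Eln stands at 445.8 to 881.94 FPKM, and Emilin2 at 2.32 to 6.58 FPKM.

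Eln encodes tropoelastin, the core of the fibre (ENSMUSG00000029675, chromosome 5, 134731447 to 134776177 in the table's coordinates, minus strand). It had 7099.9, 3676 and 4567 CPM in knockdown-labelled replicates 1 to 3, against 4409, 5431 and 5036 CPM in wild type replicates 1 to 3. The highest and the lowest of the 6 libraries were both knockdown-labelled, and the wild type libraries lay between them. The group means were 5114 ± 1776 CPM in knockdown-labelled and 4959 ± 515 CPM in wild type lungs (SD, n = 3 each). The fold of 1.03 had a 95% interval of 0.697 to 1.53 (edgeR adjusted p = 0.953), so these libraries do not tell folds within that range apart. The sign rests on single libraries, because the log2 fold change of 0.04 became -0.26 once knockdown-labelled replicate 1 was left out and -0.03 once wild type replicate 1 was. Eln alone took 0.714%, 0.361% and 0.463% of all counts in the knockdown-labelled and 0.436%, 0.535% and 0.506% in the wild type libraries. By FPKM it ranked 17th, 39th and 30th among all genes in the knockdown-labelled lungs and 30th, 24th and 26th in wild type lungs. Of the counts on the 10 genes together, Eln made up 63.4% to 72.9% in each library.

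Lox encodes the main lysyl oxidase that crosslinks tropoelastin and collagen (ENSMUSG00000024529, chromosome 18). It had 909, 485 and 555 CPM in the knockdown-labelled and 642, 765 and 647 CPM in the wild type libraries. As for Eln, knockdown-labelled replicate 1 was the highest library and knockdown-labelled replicate 2 the lowest. The means were 650 ± 227 CPM in knockdown-labelled and 684 ± 69.7 CPM in wild type lungs, a log2 fold change of -0.07 (95% interval -0.62 to 0.47, edgeR adjusted p = 0.911). Without knockdown-labelled replicate 1 it was -0.39 (unadjusted p = 0.0155), and without knockdown-labelled replicate 2 it was 0.10. Its relative Loxl1, an enzyme tied to elastin upkeep in adult mice, had 99.2, 94.2 and 116 CPM in the knockdown-labelled and 95.3, 102 and 92.7 CPM in the wild type libraries. The groups overlapped, with a log2 fold change of 0.10 (95% interval -0.13 to 0.32, adjusted p = 0.659).

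Lox followed Eln across the libraries (Pearson r of log2 CPM 0.956, n = 6), while Loxl1 did not (0.091). This was not particular to the pair, since Lox was at 0.956 with Ltbp4 too, and Ltbp4 at 0.870 with Eln. Within a library the FPKM ratio of Lox to Eln was 0.217, 0.224 and 0.206 in the knockdown-labelled and 0.247, 0.239 and 0.218 in the wild type lungs, although Eln itself varied 1.93-fold among the knockdown-labelled lungs. The ratios overlapped between the groups (exact two-sided permutation p = 0.2, 0.733 adjusted over the 11 ratios computed). The ratio of Loxl1 to Lox was 0.158, 0.281 and 0.303 in the knockdown-labelled and 0.215, 0.192 and 0.208 in the wild type lungs. It was lowest in the library with the most Lox and again overlapped between the groups (exact permutation p = 0.5, adjusted 0.917). With 3 libraries a group the smallest p such a test can give is 0.1.

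**Figure D3:**
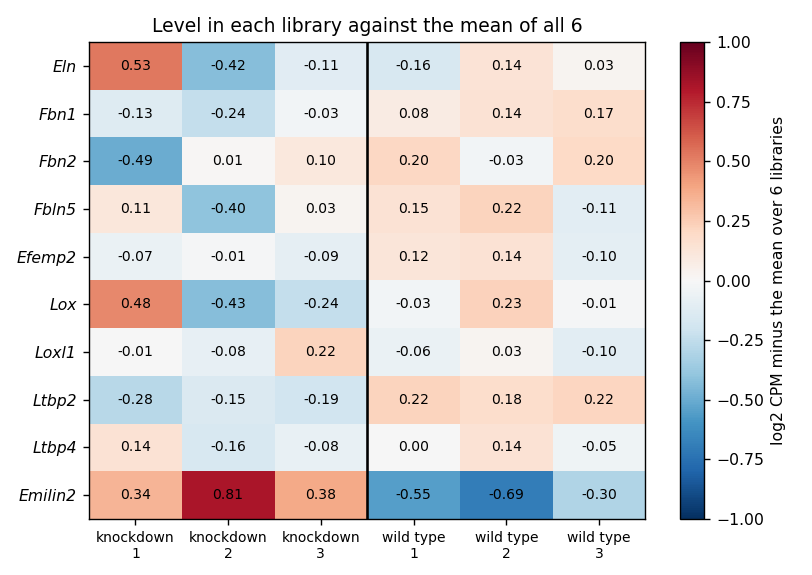
Level of each gene in each library as log2 CPM minus the gene's mean over 6 libraries, with knockdown-labelled libraries left of the line and wild type libraries right of it. Eln and Lox are at 0.53 and 0.48 in knockdown-labelled replicate 1 and at -0.42 and -0.43 in replicate 2, while Fbn1, Ltbp2 and Emilin2 split by group.

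Fbn1 and Fbn2 encode the fibrillins, the rods of the microfibril. Fbn1 (ENSMUSG00000027204, chromosome 2, 125142514 to 125349913 in the table's coordinates, minus strand) had 449, 417 and 481 CPM in the knockdown-labelled and 519, 542 and 554 CPM in the wild type libraries. Every knockdown-labelled library was below every wild type library. The means were 449 ± 32.1 CPM in knockdown-labelled and 538 ± 17.8 CPM in wild type lungs, a log2 fold change of -0.26 (SE 0.08, 95% interval -0.45 to -0.07). The edgeR test was not passed (unadjusted p = 0.0139, adjusted p = 0.2005). Fbn2, the fibrillin that prevails in embryonic tissue, had 140, 198 and 212 CPM in the knockdown-labelled and 227, 193 and 227 CPM in the wild type libraries. The knockdown-labelled library with the most Eln, replicate 1, had the least Fbn2, and the groups overlapped (log2 fold change -0.23, 95% interval -0.61 to 0.14, adjusted p = 0.506). The ratio of Fbn2 to Fbn1 by FPKM was 0.375 ± 0.079 in knockdown-labelled and 0.368 ± 0.0372 in wild type lungs (SD, n = 3 each, exact permutation p = 0.9, adjusted 0.99).

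Ltbp2 encodes a protein of the latent TGF-beta binding family that binds fibrillin-1 and fibulin-5 but not latent TGF-beta itself. Its row (ENSMUSG00000002020, chromosome 12, 84829986 to 84923306 in the table's coordinates, minus strand) gave 169, 185 and 180.1 CPM in the knockdown-labelled and 239, 232 and 239 CPM in the wild type libraries. The groups did not overlap, and each was tight, with a coefficient of variation of 4.7% in knockdown-labelled and 1.68% in wild type lungs. The means were 178 ± 8.37 CPM in knockdown-labelled and 237 ± 3.97 CPM in wild type lungs (SD, n = 3 each), a fold of 0.753 (95% interval 0.676 to 0.838) and a log2 fold change of -0.41. With an unadjusted p = 0.000418 it had a smaller p than all but 74 of the genes tested, and its edgeR adjusted p of 0.0942 missed the threshold. By DESeq2 the adjusted p was 8.47e-05, and under the other alternatives it was 0.0743 to 0.714. Leaving out each library in turn gave log2 fold changes of -0.44 to -0.36.

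Ltbp4 encodes the family member that binds fibulin-5 and helps to place elastin on microfibrils, and mice that lack it have defective lung elastic fibres. It had 506, 410.0 and 434 CPM in the knockdown-labelled and 457, 506 and 444 CPM in the wild type libraries. The groups overlapped widely (log2 fold change -0.06, 95% interval -0.30 to 0.19, edgeR adjusted p = 0.827). Against Ltbp4 in the same library, Ltbp2 stood at a ratio by FPKM of 0.264, 0.357 and 0.328 in the knockdown-labelled and 0.414, 0.362 and 0.425 in the wild type lungs. These ratios did not overlap (exact permutation p = 0.1, the smallest possible, adjusted 0.55). Against Fbn1 the ratio of Ltbp2 did overlap, at 0.591 ± 0.0594 in knockdown-labelled and 0.652 ± 0.0265 in wild type lungs (exact permutation p = 0.3, adjusted 0.825).

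Fbln5 encodes fibulin-5, which tethers tropoelastin to microfibrils and to integrins and whose loss gives mice loose skin and enlarged airspaces. It had 284, 199.0 and 269 CPM in the knockdown-labelled and 291, 307 and 245 CPM in the wild type libraries. Knockdown-labelled replicate 2 was the lowest library, as for Eln, Lox, Ltbp4 and Fbn1, and the groups overlapped (log2 fold change -0.16, 95% interval -0.52 to 0.19, adjusted p = 0.635). Efemp2 encodes fibulin-4, which binds the Lox proenzyme and without which mouse embryos form no proper elastic fibres. It had 57.4, 59.9 and 56.7 CPM in the knockdown-labelled and 65.4, 66.4 and 56.2 CPM in the wild type libraries, with overlapping groups (log2 fold change -0.11, 95% interval -0.32 to 0.09, adjusted p = 0.554). The Efemp2 values are uncertain, since the row overlaps that of Mus81 on the opposite strand, which had a mean of 570.3 counts beside 960 for Efemp2. The strand setting of the counting is not given in the sources used here. Rows that overlap Eln, Fbn1, Lox and Ltbp2 on the opposite strand had means of 1.67 to 14.3 counts.

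**Figure D4:**
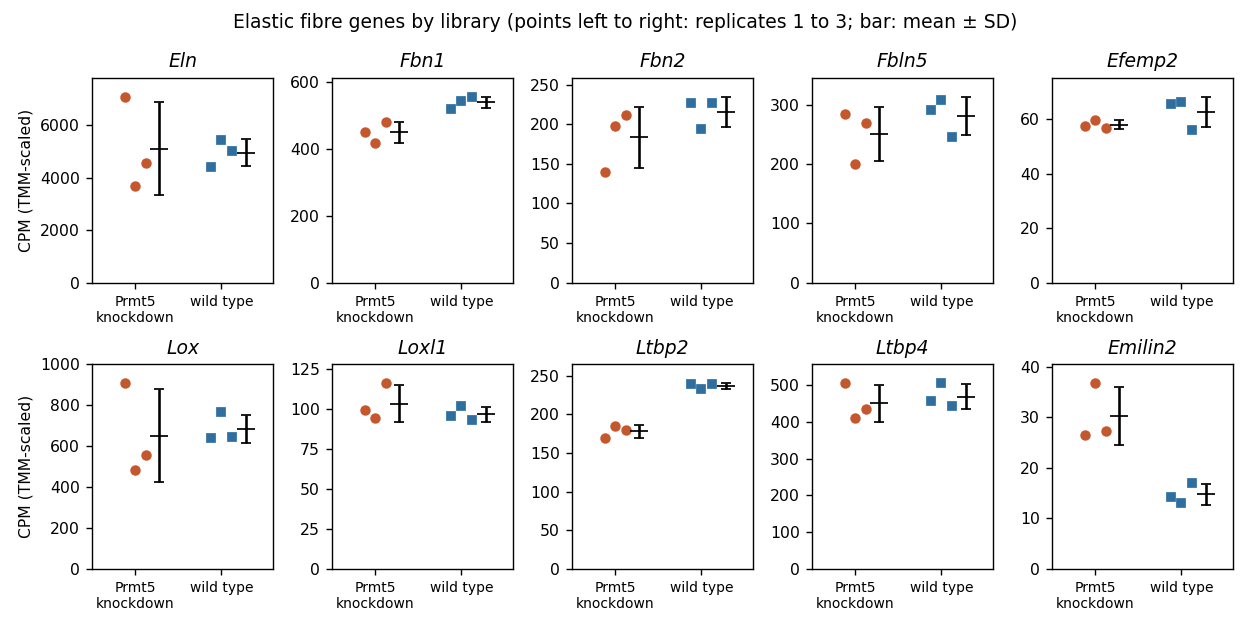
CPM of each gene in each library (points, replicates 1 to 3 from left to right) with the mean ± SD of the group, knockdown-labelled left and wild type right, on axes that start at 0. Ltbp2 and Fbn1 are lower in each knockdown-labelled library than in any wild type library, Emilin2 is higher, and Eln and Lox spread widest in the knockdown-labelled lungs.

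Emilin2 encodes a secreted glycoprotein related to Emilin1, a protein found where elastin and microfibrils meet. Its row (ENSMUSG00000024053, chromosome 17, 71559167 to 71618973 in the table's coordinates, minus strand) held 431, 521 and 533 counts in the knockdown-labelled and 232, 184 and 266 counts in the wild type libraries. As CPM these were 26.6, 36.9 and 27.3 in the knockdown-labelled and 14.3, 13.0 and 17.0 in the wild type libraries. Each knockdown-labelled library was above each wild type library. The means were 30.3 ± 5.73 CPM in knockdown-labelled and 14.8 ± 2.07 CPM in wild type lungs (SD, n = 3 each), a fold of 2.04 (95% interval 1.56 to 2.67) and the largest fold of the 10 genes. It did not pass the edgeR test (unadjusted p = 0.00042, adjusted p = 0.0942), and 75 genes had a smaller p. By DESeq2 the adjusted p was 1.87e-05, without a filter on low counts the edgeR adjusted p was 0.0255, and under the other alternatives it was 0.0824 to 0.714. Relative to Fbn1 in the same library, the FPKM ratio of Emilin2 was 0.131, 0.195 and 0.125 in the knockdown-labelled and 0.0609, 0.0528 and 0.0678 in the wild type lungs (exact permutation p = 0.1, adjusted 0.55).

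The heart muscle RNA described above differed between the groups in the same direction as Emilin2. Knockdown-labelled replicate 2 had the highest summed heart markers, 11261 CPM, and the most Emilin2, 36.9 CPM, and wild type replicates 1 and 2 had the least of both. Replicate 3 of the knockdown-labelled and of the wild type lungs had nearer sums, 3386 and 2855 CPM, with Emilin2 at 27.3 and 17.0 CPM. The covariate used for the heart marker level was the mean log2 CPM of the markers and not their sum. It was 7.08, 8.95 and 7.14 in the knockdown-labelled and 3.71, 4.27 and 6.68 in the wild type libraries. With this covariate the Emilin2 log2 fold change was 0.59 (edgeR unadjusted p = 0.0165, adjusted p = 0.714), against 1.03 without it. In the same fit Ltbp2 was at -0.46 (unadjusted p = 0.00705) and Fbn1 at -0.24 (unadjusted p = 0.133). Skeletal muscle markers also varied, with sums over 6 genes of 831, 498 and 3528 CPM in the knockdown-labelled and 275, 80.6 and 1539 CPM in the wild type libraries, which overlapped. The heart covariate did not overlap between the groups, so the fit cannot tell heart muscle level and genotype label apart. The part of heart or skeletal muscle RNA in the Emilin2 difference was not tested.

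**Figure D5:**
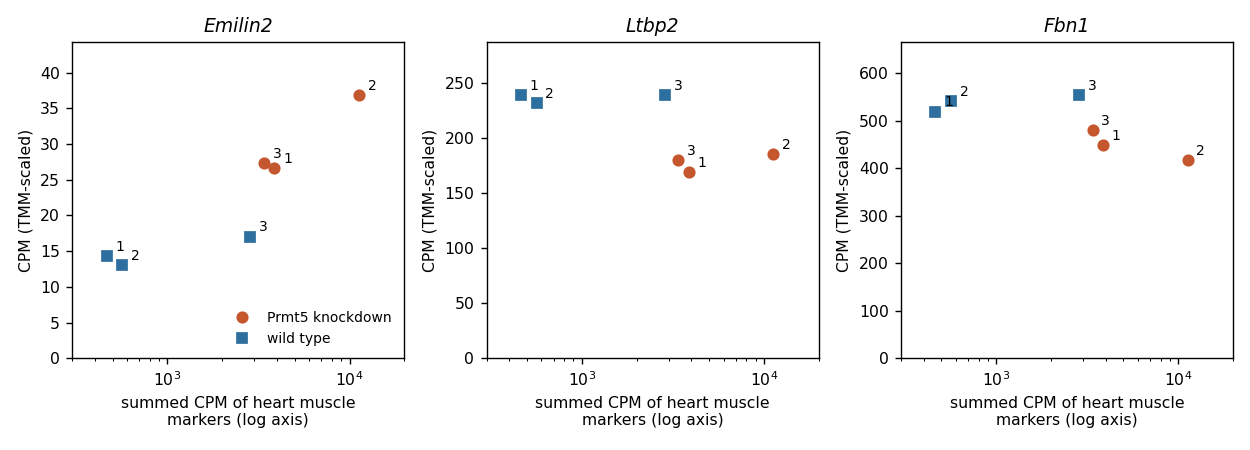
CPM of Emilin2, Ltbp2 and Fbn1 in each library against the summed CPM of 13 heart muscle markers on a log axis, with the replicate number beside each point. Emilin2 is highest, 36.9 CPM, in the library with the largest sum, 11261 CPM, and Ltbp2 lies at 169 to 185 CPM in the knockdown-labelled and 232 to 239 CPM in the wild type lungs.

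The promoter windows of Ltbp2 and Emilin2 are shown because these 2 genes had the smallest p of the 10. They run from 250 bases before to 50 bases after the start of transcription, from RefSeq on GRCm38.p6, whose coordinates are not those of the count table. Windows were matched for 6 of the 10 genes. Capitals mark the E-box letters CANNTG, the motif bound by basic helix-loop-helix factors such as Twist2. Ltbp2 has 1 window, at chr12:84876442-84876741. Emilin2 has 2 listed start sites, with windows at chr17:71311507-71311806 and chr17:71310962-71311261. Bases just after the second of these starts were found in no GENCODE transcript of Emilin2, unlike those of the other windows shown. All windows are on the minus strand and printed in the direction of transcription.
Ltbp2: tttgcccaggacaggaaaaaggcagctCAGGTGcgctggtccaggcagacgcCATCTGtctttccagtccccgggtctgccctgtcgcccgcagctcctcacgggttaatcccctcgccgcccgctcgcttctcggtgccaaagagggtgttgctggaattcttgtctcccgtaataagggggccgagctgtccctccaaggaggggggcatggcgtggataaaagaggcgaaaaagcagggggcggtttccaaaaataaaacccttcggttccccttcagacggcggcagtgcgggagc
Emilin2, first start: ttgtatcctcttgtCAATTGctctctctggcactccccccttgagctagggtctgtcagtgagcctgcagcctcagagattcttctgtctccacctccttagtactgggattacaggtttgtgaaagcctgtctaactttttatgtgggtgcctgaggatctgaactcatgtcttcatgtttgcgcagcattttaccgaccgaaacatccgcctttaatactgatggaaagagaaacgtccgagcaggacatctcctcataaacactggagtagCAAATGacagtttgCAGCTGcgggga
Emilin2, second start: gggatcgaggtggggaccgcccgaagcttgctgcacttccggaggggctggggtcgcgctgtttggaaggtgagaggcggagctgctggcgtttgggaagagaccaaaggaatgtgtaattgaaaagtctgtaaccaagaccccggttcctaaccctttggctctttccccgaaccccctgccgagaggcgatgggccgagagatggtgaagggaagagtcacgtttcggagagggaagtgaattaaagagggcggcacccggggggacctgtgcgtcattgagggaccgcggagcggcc
The Ltbp2 window held 2 E-boxes and, counting both strands, 2 matches to the GC box GGGCGG. The first Emilin2 window held 3 E-boxes and 0 GC boxes, and the second 0 E-boxes and 2 GC boxes. None of these 3 windows held TATAAA or CCAAT on either strand. Among 32851 mouse promoters of the same length 72.3% held an E-box, 35.7% the GC box, 37.4% CCAAT and 13.6% TATAAA, so most promoters carry the marked letters. A match is a description of the letters and not of binding.

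Spread inside the groups was uneven. The median coefficient of variation of CPM over the 10 genes was 14.6% in knockdown-labelled and 8.96% in wild type lungs, and over all genes tested it was 12.8% in knockdown-labelled and 9.52% in wild type lungs. The coefficient was the higher in knockdown-labelled lungs for 9 of the 10 genes, where it was for 62.8% of all genes. Efemp2 was the exception, at 2.9% in knockdown-labelled and 9.0% in wild type lungs. Eln and Lox had the widest spread, 34.7% and 35.0% in knockdown-labelled lungs against 10.4% and 10.2% in wild type lungs. Knockdown-labelled replicate 2 was the lowest library for 5 of the 10 genes, where it was for 15.1% of all genes. The 10 genes together took 0.98%, 0.566% and 0.699% of all counts in the knockdown-labelled and 0.688%, 0.803% and 0.759% in the wild type libraries.

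Across the 6 libraries, some genes outside the list had nearly the same pattern, though Pearson r does not compare the size of the changes. Edc4, below, ran from 75.0 to 85.0 CPM, where Eln ran from 3676 to 7099.9 CPM. By Pearson r of log2 CPM over 14846 named genes, the most like Eln were Edc4 (0.994), Ankrd10 (0.993) and Coq2 (0.991), all with log2 fold changes of -0.01 to 0.01 between the groups, and 50 genes had an r over 0.95. The most like Ltbp2 were Htt (0.998), Ism1 (0.998) and Colec12 (0.995), with 209 genes over 0.95, and these 3 had log2 fold changes of -0.26, -0.84 and -0.44. The most like Emilin2 were Rnf128 (0.9998), Atp8a2 (0.993) and Hcn2 (0.993), with 155 genes over 0.95. These had log2 fold changes of 0.88, 1.45 and 0.33, and Hcn2 stood at only 0.92 to 1.27 CPM. These values of r rest on 6 libraries from the same 2 groups and are given as a description.

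Other genes that make or bind elastic fibres were counted on lists drawn up by function. All counts at an unadjusted p under 0.05 on these and on the marker lists stand beside 8.52% of all genes tested lower and 8.48% higher. Among 14 other microfibril and fibre components 0 passed the adjusted threshold, 3 were lower and 2 higher at an unadjusted p under 0.05, and the median log2 fold change was -0.03. Mfap4, a microfibril-associated protein, averaged 2634 ± 51.1 CPM in knockdown-labelled and 3209.6 ± 257 CPM in wild type lungs (log2 fold change -0.29, edgeR adjusted p = 0.219). Emilin1 averaged 129.6 ± 3.56 CPM in knockdown-labelled and 160.1 ± 11.4 CPM in wild type lungs (-0.30, adjusted p = 0.148), opposite in sign to its relative Emilin2. Fbln2, a fibulin of vessel walls and basement membranes, averaged 115 ± 26.6 CPM in knockdown-labelled and 61.8 ± 20.7 CPM in wild type lungs (0.90, adjusted p = 0.199). Fbln1 averaged 102 ± 3.04 CPM in knockdown-labelled and 83.8 ± 3.67 CPM in wild type lungs (0.28, adjusted p = 0.146). Mfap2 and Mfap5, which decorate fibrillin microfibrils, had log2 fold changes of 0.02 and 0.73 (adjusted p = 0.92 and 0.383).

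Of 10 genes for the other lysyl oxidases, copper supply and elastin processing, 0 passed the adjusted threshold, and 1 was lower and 0 higher at an unadjusted p under 0.05. The 1 was Atp7a, the pump that loads copper into lysyl oxidases in the secretory pathway. It had 34.2, 37.3 and 31.0 CPM in the knockdown-labelled and 57.4, 57.6 and 51.8 CPM in the wild type libraries, without overlap (log2 fold change -0.70, edgeR unadjusted p = 0.000121, adjusted p = 0.0795). Loxl2 averaged 86.6 ± 5.47 CPM in knockdown-labelled and 84.7 ± 7.77 CPM in wild type lungs (adjusted p = 0.9), and Loxl3 averaged 22.2 ± 3.3 CPM in knockdown-labelled and 26.2 ± 1.51 CPM in wild type lungs (adjusted p = 0.374). The median log2 fold change of these 10 genes was -0.03.

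The remaining lists had 0 genes past the adjusted threshold as well. Among 8 ADAMTS and ADAMTSL genes, whose products bind or process fibrillin microfibrils, 1 was lower (Adamts17, log2 fold change -0.38, adjusted p = 0.226) and 2 higher (Adamtsl4, 0.45, adjusted p = 0.232, and Thsd4, 0.50, adjusted p = 0.28) at an unadjusted p under 0.05. Of 9 elastolytic enzymes and inhibitors tested, 1 was lower (Timp3, -0.37, adjusted p = 0.291) and 1 higher (Ctss, 0.44, adjusted p = 0.208). Elane, Mmp7 and Mmp12 had too few counts to be tested. Of 6 integrin genes 3 were lower, where 8.52% of all genes were, and 0 higher, among them Itgav, a subunit of the fibulin-5 and TGF-beta binding integrins, at 123 ± 9.17 CPM in knockdown-labelled and 153 ± 8.58 CPM in wild type lungs (-0.31, adjusted p = 0.164). Of 5 proteoglycan genes 0 were lower and 1 was higher, Dcn, which encodes the collagen-binding decorin, at 221 ± 49.7 CPM in knockdown-labelled and 106 ± 49.9 CPM in wild type lungs (1.05, adjusted p = 0.201).

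The fibroblast and smooth muscle lists hold markers of the cells that secrete these proteins. Alveolar fibroblast markers summed to 1826, 1816 and 1647 CPM in the knockdown-labelled and 2414, 2443 and 2201 CPM in the wild type libraries, without overlap, as for Fbn1 and Ltbp2. Of the 7 markers 4 were lower and 0 higher at an unadjusted p under 0.05, where 8.52% of all genes were lower and 8.48% higher, 0 passed the adjusted threshold, and the median log2 fold change was -0.32. Npnt, the gene of the integrin ligand nephronectin, had the smallest p of these (-0.63, edgeR adjusted p = 0.0804). Adventitial fibroblast markers, 6 genes of which 3 were lower and 0 higher, summed to 571, 487 and 566 CPM in the knockdown-labelled and 586, 616 and 616 CPM in the wild type libraries. These sums did not overlap either. Pi16 (log2 fold change 0.50, adjusted p = 0.364) and Serpinf1 (0.43, adjusted p = 0.324) of this list had the opposite sign. Smooth muscle and myofibroblast markers, 8 genes of which 2 were lower and 1 higher, summed to 1015, 1009.8 and 1496 CPM in the knockdown-labelled and 1106, 1059 and 1328 CPM in the wild type libraries, which overlapped. The 2 lower were Tgfbi (log2 fold change -0.62, edgeR adjusted p = 0.123) and Pdgfra. Pdgfra averaged 174 ± 20.4 CPM in knockdown-labelled and 229 ± 6.69 CPM in wild type lungs (-0.39, adjusted p = 0.146). The 1 higher was Des, at 227 ± 81.9 CPM in knockdown-labelled and 97.6 ± 60.8 CPM in wild type lungs (1.21, adjusted p = 0.255). Acta2 averaged 345 ± 92.4 CPM in knockdown-labelled and 300.5 ± 27.4 CPM in wild type lungs (adjusted p = 0.636). Some lists of other cell types held genes on both sides at an unadjusted p under 0.05, and others on 1 side or none, with 0 past the adjusted threshold. Of 13 heart muscle markers 0 were lower and 8 higher. Of 6 artery markers 2 were lower, Gja4 (-0.50, adjusted p = 0.135) and Sox17 (-0.38, adjusted p = 0.156), and 1 was higher, Gja5 (0.31, adjusted p = 0.202). Of 7 lung epithelium markers 1 was lower, Ager of alveolar type 1 cells (-0.56, adjusted p = 0.116), and 1 was higher, Foxj1 of ciliated cells (0.38, adjusted p = 0.172). Of 6 macrophage markers 0 were lower and 2 higher, Cd68 (0.53, adjusted p = 0.243) and C1qa (0.23, adjusted p = 0.282). Of 7 airway cartilage markers tested 1 was lower, Hapln1 (-0.82, adjusted p = 0.137), and 3 were higher, Comp, Acan and Sox9 (1.19, 1.77 and 0.60, adjusted p = 0.172, 0.241 and 0.27). No marker of these lists was at 0 in every library, and the part of the cell make-up in the Fbn1 and Ltbp2 differences was not tested.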

How the data were processed

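Poly(A) RNA-seq of lungs from 6 embryos was analysed, 3 per genotype label, with libraries numbered in accession order. Raw counts of each gene were deposited for every library. FPKM made by the authors stand beside them, per the file headers. Recomputing FPKM from counts, totals and exonic length agreed within 0.005. Tools listed in the submitters' processing notes are HTSeq 0.6.1, HISAT2 2.0.1 and cutadapt 1.9.1. Genome build and strandedness: not given in the sources used here. Coordinates of the table differ from GRCm38 for some of the 10 genes and are copied from it without a build.

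The genes and lists were chosen with earlier results of these data known. The plan named all 10 genes, Prmt5, the sex-linked genes, up to 4 genes per pathway list with the smallest p, the marker genes, and the 3 genes most like Eln, Ltbp2 and Emilin2. Sftpc, Acta2, Pdgfra and Npnt come from the marker lists. Twist2, Mus81, Loxl2, Mfap2 and Mfap5, and the untested Elane, Mmp7 and Mmp12, were named after their values were seen.

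Counts were fitted with edgeR 4.0.16 in R 4.3.3 (filterByExpr, TMM, quasi-likelihood test, group as the only term). Genes were called at a two-sided Benjamini-Hochberg adjusted p under 0.05 over 17728 genes. CPM use TMM-scaled totals. The biological coefficient of variation common to all genes was 21.8%. The edgeR, DESeq2, limma and voom fits without covariates were also run on simulated counts. Those counts had no heart muscle or sex differences built in, so the runs do not check the fits against such differences. Libraries of a group differed beyond counting noise. Ratios of FPKM were compared by exact permutation. Alternatives were other scalings, no filter, DESeq2 1.42.0, limma 3.58.1 on log2(FPKM + 1), log2(FPKM + 0.1) and voom weights, embryo sex or heart marker level as a covariate, and leaving out each library.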

Additional observations from a re-analysis of the deposited data

How the results depend on the processing

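The number of genes called over the whole table depended most on the test. It was 6 by edgeR, 81 without the filter on low counts, 813 by DESeq2, 11 by limma-voom, 3 by limma on log2(FPKM + 0.1), 0 with embryo sex and 1 with heart muscle level as a covariate, and 0 to 17 when each library was left out. Of the 10 elastic fibre genes 1 was called without the filter (Emilin2) and 3 by DESeq2 (Fbn1, Ltbp2 and Emilin2, with adjusted p = 0.0468, 8.47e-05 and 1.87e-05), and 0 under the other alternatives, the left-out libraries included, where the adjusted p of Fbn1 was 0.181 to 0.751. Those with an unadjusted p under 0.05 numbered 2 without wild type replicate 3, where Fbn1 had an unadjusted p = 0.0544 by edgeR. They also numbered 2 with heart muscle level as a covariate, where Fbn1 had an unadjusted p = 0.133 by edgeR. Without knockdown-labelled replicate 1 they numbered 4, where Lox joined. Over all genes tested, those with an unadjusted p under 0.05 by edgeR numbered 3015 in the main fit. They numbered 2896 without wild type replicate 3, 1213 with the heart muscle covariate and 3287 without knockdown-labelled replicate 1. Shares of the genes tested are not given for these alternatives, and nothing particular to the list is read from the counts. The median log2 fold change of the 10 genes, -0.09, turned to 0.17 with heart muscle level as a covariate and was -0.20 to -0.01 when each library was left out. With that covariate Fbln5 was at 0.25, Efemp2 at 0.014, Lox at 0.25 and Ltbp4 at 0.10, each of opposite sign to the fit without it. The Eln log2 fold change of 0.04 turned to -0.0094 by limma-voom and -0.053 with sex as a covariate. Leaving out each library gave -0.26 to 0.23 for Eln (negative without replicate 1 of either group), -0.39 to 0.10 for Lox (positive without knockdown-labelled replicate 2 or 3 or wild type replicate 2), -0.14 to 0.0027 for Ltbp4 (positive without knockdown-labelled replicate 2) and -0.13 to 0.0069 for Prmt5 (positive without knockdown-labelled replicate 1). The cause of these turns was not tested. Fbn1 and Ltbp2 stayed negative and Emilin2 positive under every alternative run, with Emilin2 at 0.86 to 1.15 when each library was left out. No paired analysis was possible because the libraries were numbered in accession order and the embryo numbers in the titles are not shared between the groups. With 3 libraries per group, intervals of Eln and Lox span folds of 0.697 to 1.53 and 0.65 to 1.39.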
